A study of Arabidopsis thaliana with 2 samples.

Results

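The RPP4/RPP5 cluster is a run of TIR-NBS-LRR disease resistance genes on chromosome 4 of Arabidopsis thaliana, and 7 of its genes were described here out of 27444 protein-coding genes on the nuclear chromosomes. They are AT4G16860 (RPP4), AT4G16890 (SNC1), AT4G16900, AT4G16920, AT4G16940, AT4G16950 (RPP5) and AT4G16960. The members were named by locus identifier, and the cluster was selected on its measured CpHpG methylation levels in the same libraries, so its levels and counts are given as a description and no test was made on them. They span chr4:9488466-9551028 (TAIR10, 62563 bp), and all 7 are on the minus strand.

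Whole-genome bisulfite sequencing was done on rosette leaves of 3-week-old plants homozygous for ibm1-1, in their first generation as homozygotes, and both groups carry this mutation. One group was in the Col-0 ecotype and the other in Ler-0, into which the mutation had been brought by 4 backcrosses, with 1 library in each. Plants grew at 21°C under long days (16 h light, 8 h dark). With 1 library per ecotype, ecotype, library and depth cannot be told apart, no p-value was calculated between them, and no library with an active IBM1 gene was used here, so methylation that the cluster carries without ibm1-1 cannot be told apart from methylation gained in the mutant.

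Proteins of the TIR-NBS-LRR class are receptors inside the plant cell that detect molecules of pathogens. The TIR domain at the start signals, the nucleotide-binding site acts as a switch, and the leucine-rich repeats at the end take part in recognition. RPP4 and RPP5 are known for resistance to downy mildew, and gain-of-function alleles of SNC1 give constant immune signalling and small plants. Such clusters grow by duplication and unequal exchange, so that copies within an accession resemble each other and differ in number between accessions. IBM1 is a demethylase of lysine 9 of histone H3. Without it, the mark stays on transcribed genes and the CpHpG methyltransferase CMT3 is drawn into gene bodies (H stands for A, C or T). CpG methylation is copied by MET1, and CpHpH methylation by other enzymes.

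A methylation level is the percentage of methylated calls among all calls at the cytosines of a context on both strands, averaged over the cells of the leaf. The Col-0 library held 371653818 calls and the Ler-0 library 313387873, a mean of 8.63 and 6.58 per cytosine. Chloroplast DNA, taken as unmethylated, had 1.34% methylated calls in Col-0, against 1.38% for Ler-0, which is the background of a level. Values are followed by 95% Wilson intervals, which cover counting error only, since reads cover several cytosines and are not independent molecules.

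A stretch of exon 4 was picked as the 120 bases of RPP5 exons with the most highly methylated CpHpG cytosines in Col-0. That makes its RPP5 level high by choice. A Ler-0 copy of another length, with 1.14% of 88 CpHpG calls methylated over exon 4, was left out. The other copies, 3 from Col-0 and 1 from the rebuilt Ler-0 sequence, are shown as an example. They are printed 5′ to 3′ in the direction of the genes, and capitals mark CpHpG cytosines methylated in at least 50% of at least 5 reads (C on the printed strand, G for a cytosine on the other strand). The Col-0 stretches are at chr4:9490144-9490263, chr4:9521856-9521975 and chr4:9541847-9541966, minus strand, TAIR10. In the Ler-0 copy, n is a base that the cytosine report leaves unresolved between A and T.
RPP4 exon 4: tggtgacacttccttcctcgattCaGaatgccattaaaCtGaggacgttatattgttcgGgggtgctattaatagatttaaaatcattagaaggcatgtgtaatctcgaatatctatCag
AT4G16920 exon 4: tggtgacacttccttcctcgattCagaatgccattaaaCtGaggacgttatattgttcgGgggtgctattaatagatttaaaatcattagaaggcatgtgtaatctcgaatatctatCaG
RPP5 exon 4: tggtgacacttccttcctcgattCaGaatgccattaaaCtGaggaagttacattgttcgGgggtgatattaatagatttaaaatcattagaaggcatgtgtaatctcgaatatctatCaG
Ler-0 copy at 20.3 kb: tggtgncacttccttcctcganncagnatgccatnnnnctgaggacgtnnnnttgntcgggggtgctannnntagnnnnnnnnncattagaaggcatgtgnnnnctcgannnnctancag

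The RPP4 and AT4G16920 stretches had 0 differences over 120 bases, RPP5 had 3 from each of them, and the Ler-0 copy had 0 from RPP4 and AT4G16920 over the 85 bases that could be compared. CpHpG methylation was 84.9% in RPP4 (101 of 119 calls), 65.9% in AT4G16920 (91 of 138) and 82.1% in RPP5 (128 of 156). The Ler-0 copy had 0 of 47 methylated calls, which allows a level of up to 6.38%, and over its whole exon it had 3.61 reads per CpHpG cytosine, under the minimum of 4 used for genes and tiles. Nearly the same letters thus carried high CpHpG methylation in all 3 Col-0 genes and none that was detectable at this depth in the Ler-0 copy. CpG methylation in the stretch was 95.2%, 85.4% and 93.0% in the Col-0 genes and 0% in the Ler-0 copy. Since RPP4 and AT4G16920 are identical over this stretch, a read of 75 bases that lies within it cannot be assigned to either gene by its sequence alone.

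The stretch holds 1 CpCpG site on the other strand, at base 60 counted from the 5′ end of the printed strand. At such a site the inner cytosine is a CpG and the outer one a CpHpG. In RPP4 the outer cytosine was methylated in 16 of 17 reads and the inner one in 17 of 17. In AT4G16920 these were 16 of 28 and 27 of 27, and in RPP5 19 of 29 and 29 of 29. In the Ler-0 copy both were unmethylated in 9 of 9 reads, which allows up to 33.3% methylation at each.

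The 7 members fell into 3 kinds in Col-0. RPP4 and AT4G16900 had the highest whole-gene CpHpG levels, AT4G16920, RPP5 and SNC1 had intermediate levels, and AT4G16940 and AT4G16960 were near the median of all genes. Over the protein-coding genes with enough reads in a context (4 or more covered cytosines, with 4 or more reads per cytosine on average), 26620 of them for CpHpG, the median CpHpG level was 2.63%, the median CpG level 6.92% and the median CpHpH level 1.095%.

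RPP4 (7372 bp, 6 exons) had a CpHpG level of 63.7% (62.1–65.2%, 3736 calls), with 79.0% CpG and 13.6% CpHpH methylation. Only 73 of the 26620 genes had a higher CpHpG level. AT4G16900 (4830 bp, 10 exons) had 48.6% CpHpG (47.1–50.1%, 4316 calls), 73.8% CpG and 12.6% CpHpH methylation, and 301 genes had more CpHpG methylation. Both thus combined high levels in all 3 contexts.

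AT4G16920 (7851 bp, 8 exons) had 21.8% CpHpG methylation (20.2–23.4%, 2552 calls), with 45.9% CpG and 6.82% CpHpH. RPP5 (6523 bp, 8 exons) had 17.1% (15.7–18.6%, 2439 calls), with 22.0% CpG and 1.39% CpHpH. SNC1 (5702 bp, 6 exons) had 13.0% (11.9–14.3%, 3153 calls), with 21.6% CpG and 2.03% CpHpH. Their CpHpH levels were higher than those of 96.6% (AT4G16920), 74.8% (RPP5) and 87.4% (SNC1) of genes. Their CpHpG levels were higher than those of 90.2%, 87.3% and 84.1% of genes, in the same order.

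AT4G16940 (6546 bp, 7 exons) had 2.33% CpHpG methylation (1.80–3.03%, 2356 calls) and 2.12% CpG. AT4G16960 (3627 bp, 5 exons) had 2.63% (1.74–3.95%, 837 calls) and 7.05% CpG. The intervals of these neighbours in the order of levels overlap, and the intervals of the other 5 members do not overlap each other. Over the 7 genes together, CpHpG methylation was 30.6%, with 29.5% in exons and 41.0% in introns. CpG methylation was 47.2% and CpHpH methylation 7.21%.

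Single cytosines were mostly either high or low. Of 1271 CpHpG cytosines with at least 5 reads in the 7 genes, 344 were methylated at 50% or more and 728 under 10%. RPP4 had 148 of 203 at 50% or more, AT4G16900 103 of 246, AT4G16920 42 of 171, RPP5 28 of 172 and SNC1 22 of 228. AT4G16940 had 1 of 183 and AT4G16960 0 of 68, which allows up to 4.41%.

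**Figure D1:**
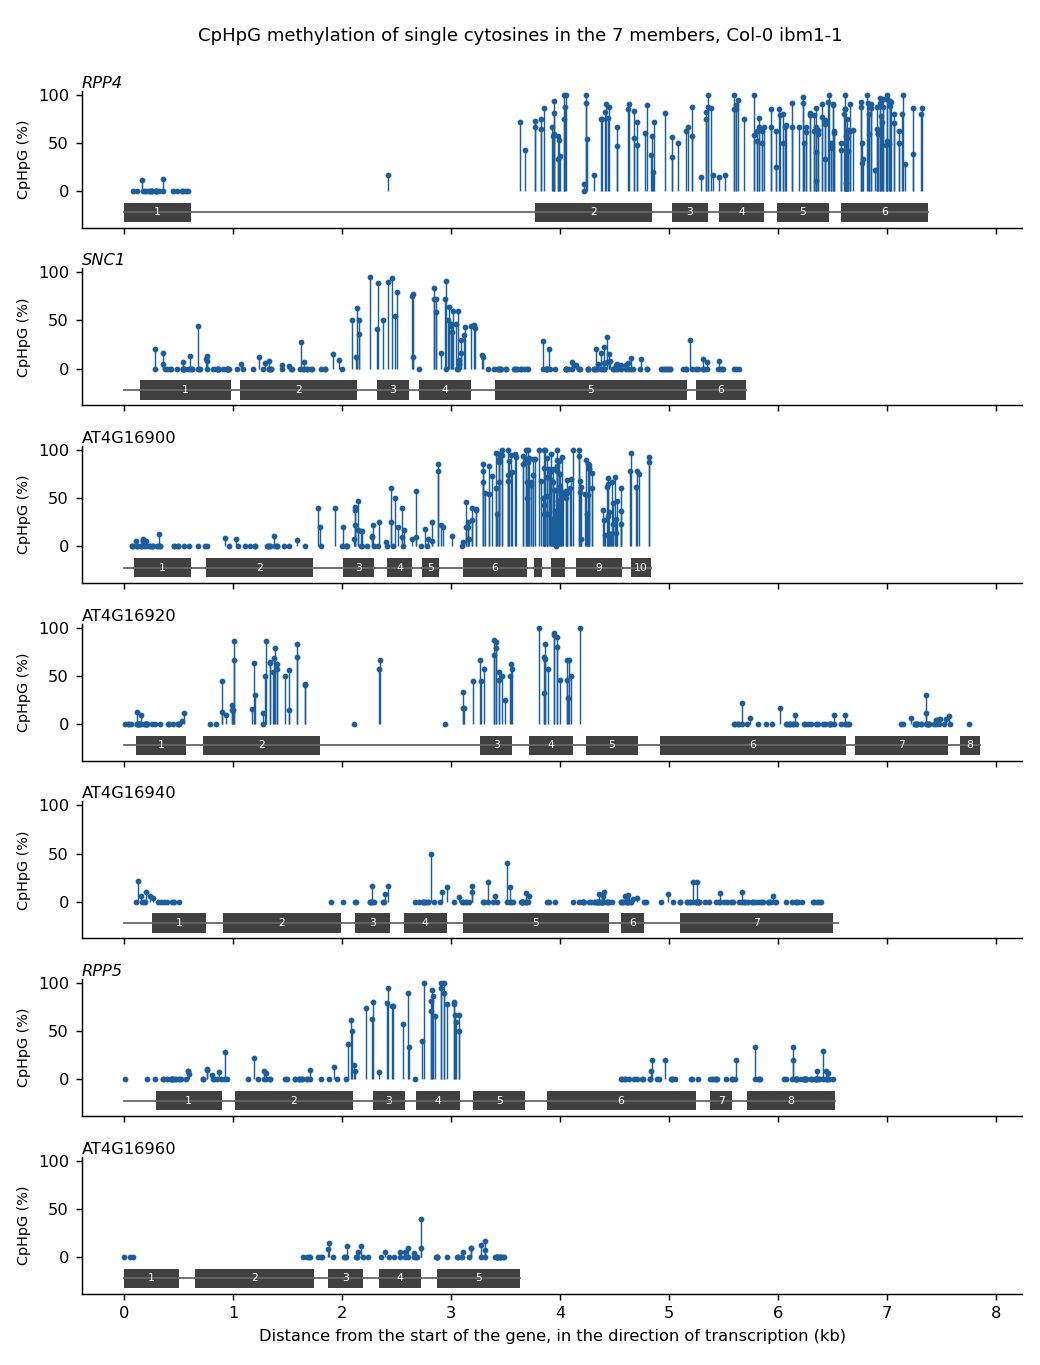
CpHpG methylation of single cytosines with at least 5 reads (y axis, percent) along the 7 members in Col-0 ibm1-1 (x axis, kb from the start of the gene in the direction of transcription). Each point with its stem is 1 cytosine and grey boxes are numbered exons. The first exon is low in all 7 genes, but few reads cover it in AT4G16940 and AT4G16960. RPP4 is high from exon 2 to its end, AT4G16900 from exon 6, and SNC1, AT4G16920 and RPP5 are high in a block in the middle, while AT4G16940 and AT4G16960 have no such block.

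The high cytosines lay in blocks that began after the first exon. This exon, which encodes the TIR domain, had 0.709% CpHpG methylation in RPP4, 4.18% in SNC1, 1.74% in AT4G16900, 1.88% in AT4G16920, 1.05% in AT4G16940, 1.97% in RPP5 and 0 of 54 calls in AT4G16960, which allows up to 5.56%. All 7 were thus low, also in the gene with the highest level of the cluster, although only 3 of the 38 CpHpG cytosines of this exon in RPP4 lie in unique 75-bp windows. The same held for 2 of 34 in AT4G16940 and 1 of 33 in AT4G16960. In these 2 genes the exon had only 2.79 and 1.64 reads per CpHpG cytosine, under the minimum of 4 used for genes. In RPP4 the change of level came between exon 1 and exon 2, across an intron of 3158 bp with only 1.21 reads per CpHpG cytosine.

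In RPP4, exons 2 to 6 had CpHpG levels of 66.1%, 66.7%, 72.3%, 70.3% and 72.6%. Together they had 93.6% CpG, 70.6% CpHpG and 14.6% CpHpH methylation. The block went on beyond the 3′ end of the gene into the pseudogene AT4G16870 (chr4:9483955-9488397), with 94.6% CpG, 58.7% CpHpG and 14.97% CpHpH methylation. The next gene on that side, AT4G16857, also annotated as TIR-NBS-LRR class, had 1.65% CpHpG methylation.

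AT4G16900 showed a graded pattern. Exons 1 and 2 had 1.74% and 2.09% CpHpG methylation, exons 3 to 5 had 18.8%, 25% and 24.5%, and exons 6 to 10 had 73.9%, 85.0%, 53.0%, 54.9% and 69.2%. The high exons had 94.6% CpG and 17.7% CpHpH methylation. They border the pseudogene AT4G16910 (chr4:9509676-9511760), with 93.8% CpG, 55.9% CpHpG and 19.9% CpHpH methylation. In both genes the high block thus covered the 3′ end and adjoined a methylated pseudogene, whose part in the levels of the genes was not tested. Depth moved with the level, with 18.1 reads per CpHpG cytosine in the high exons of RPP4 against 7.42 in its first exon, 21.5 against 8.71 in those of AT4G16900, and 25.1 and 27.8 in the pseudogenes, and the part of depth was not tested either.

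In SNC1, RPP5 and AT4G16920 the high exons lay inside the gene, with low exons on both sides. SNC1 had 4.64% in exon 2, 76.5% in exon 3 (68.1–83.2%, 119 calls), 43.8% in exon 4 and 2.78% in exon 5, the longest exon with 1761 bp. RPP5 had 7.12% in exon 2, 71.4% in exon 3 (63.2–78.4%, 133 calls), 80.2% in exon 4 (75.2–84.4%, 283 calls) and 1.09% in exon 6. This exon 6 had 3.72 reads per CpHpG cytosine, under the minimum of 4 used for genes. Only 20 of its 99 CpHpG cytosines lie in unique 75-bp windows. AT4G16920 had 43.3% in exon 2, 61.9% in exon 3, 62.8% in exon 4 and 2.11% in exon 6. The sequence of RPP5 exon 5 is 100% identical to that of AT4G16920 exon 5 over 480 bp, and both had almost no reads (0.0667 and 0.1 per CpHpG cytosine), so that their level is not known.

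The blocks of these 3 genes differed in CpHpH methylation. The high exons of RPP5 had 94.9% CpG, 77.4% CpHpG and 3.26% CpHpH methylation (2.53–4.21%), those of SNC1 86.4%, 51.6% and 5.50% (4.61–6.56%), and those of AT4G16920 84.1%, 52.2% and 9.79% (9.02–10.6%). RPP5 thus had the highest CpHpG and the lowest CpHpH level among the 5 blocks. Here too the high exons had more reads, 10.7, 11.1 and 10.4 per CpHpG cytosine against 6.73, 9.06 and 5.59 in the low exons. The low exons of the same genes had 4.99%, 5.41% and 12.5% CpG methylation and 2.87%, 3.48% and 2.21% CpHpG methylation.

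AT4G16940 and AT4G16960 had no exon above 6.06% and 3.60% CpHpG methylation, although their second exons are 88.1% identical to exon 2 of RPP5. That exon had only 33 CpHpG calls in AT4G16940 and 30 in AT4G16960, with 0 methylated in each, which allows up to 9.09% and 10%. In both genes, 0% of the CpHpG cytosines in exon 2 lie in unique 75-bp windows.

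Similar exons of different members had different levels. Exon 2 of RPP5 is 92.2% identical to exon 2 of SNC1, 90.8% to that of RPP4 and 90.4% to that of AT4G16920, and the levels were 7.12%, 4.64%, 66.1% and 43.3%. Exon 3 of RPP5 is 95.9% identical to that of SNC1, and here both were high, at 71.4% and 76.5%. Only 2 of the 16 CpHpG cytosines of exon 3 in RPP5 lie in unique 75-bp windows, with 30 calls. In SNC1 these were 2 of 17, without calls. Whether reads of this exon were placed in the wrong copy was not tested. Exon 6 of RPP5 is 94.3% identical to that of AT4G16920, and both were low, with only 3.72 reads per CpHpG cytosine in RPP5.

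The densest stretch of methylated CpHpG cytosines in 4 of the genes shows what the blocks are made of, with capitals as before. These stretches were picked for their number of methylated cytosines. They are at chr4:9488808-9488927, chr4:9503023-9503142, chr4:9512653-9512772 and chr4:9524399-9524518, minus strand, TAIR10, and the densest stretch of RPP5 is the exon 4 stretch above.
RPP4 exon 6: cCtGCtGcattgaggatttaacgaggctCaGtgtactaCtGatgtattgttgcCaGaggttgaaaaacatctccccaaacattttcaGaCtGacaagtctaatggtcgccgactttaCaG
SNC1 exon 4: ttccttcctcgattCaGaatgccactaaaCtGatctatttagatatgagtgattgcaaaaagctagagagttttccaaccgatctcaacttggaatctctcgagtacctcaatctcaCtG
AT4G16900 exon 8: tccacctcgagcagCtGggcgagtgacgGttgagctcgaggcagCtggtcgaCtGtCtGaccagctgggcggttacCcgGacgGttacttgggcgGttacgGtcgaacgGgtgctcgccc
AT4G16920 exon 2: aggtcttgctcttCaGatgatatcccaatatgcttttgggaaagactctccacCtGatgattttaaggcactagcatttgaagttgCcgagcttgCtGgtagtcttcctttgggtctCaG

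In the RPP4 stretch, 15 of 17 CpHpG cytosines were at 50% or more, with a level of 77.8%. The SNC1 stretch had 71.4% (65 of 91 calls) and the AT4G16920 stretch 63.9%, with 9 of 9 cytosines at 50% or more. The AT4G16900 stretch differs in its letters, with repeated CpG and CpCpG, and had 14 of 24 cytosines at 50% or more and a level of 53.0%. It has no CpHpG cytosine in a unique 75-bp window.

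Short reads from near-identical copies can be placed in the wrong gene, so the cytosines whose 75-bp windows occur once in the converted genome were also taken alone. Between 50.9% (AT4G16960) and 91.6% (AT4G16900) of windows in the members were unique, against 97.8% in a control region of chromosome 1. At these cytosines the CpHpG level was 65.3% in RPP4, 44.0% in AT4G16900, 16.6% in AT4G16920, 15.2% in RPP5, 7.47% in SNC1, 2.52% in AT4G16960 and 2.31% in AT4G16940. The order of the first 5 members did not change. SNC1 moved most, and its exon 3 has only 2 unique CpHpG cytosines, without reads. The unique cytosines of RPP5 exon 4 had 80.4% (158 calls), those of RPP4 exon 6 68.7% (595 calls) and those of AT4G16920 exon 3 62.8% (180 calls), against 80.2%, 72.6% and 61.9% over all cytosines. The levels were further apart in RPP4 exon 4, with 54.4% (57 calls) against 72.3%, and in SNC1 exon 4, with 62.9% (70 calls) against 43.8%. In AT4G16920 exon 4 the unique cytosines gave only 6 calls.

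Sequence between the members was low, with 1 exception. CpHpG methylation was 43.5% between SNC1 and AT4G16900, where the pseudogene AT4G16910 lies, and between 2.02% and 3.43% in the other 5 gaps. Genes annotated between the members were low as well, with 1.39% in AT4G16880, 2.46% in AT4G16915 and 2.84% in AT4G16930. On the far side of AT4G16960, AT4G16970 had 13.7% CpHpG and 37.9% CpG methylation.

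CpCpG sites were sorted by their 2 cytosines, with at least 5 reads on both, into unmethylated sites, CpmCpG sites (inner cytosine at 50% or more and outer under 25%), mCpmCpG sites (outer at 25% or more as well) and mCpCpG sites. Of 217 such sites in the 7 genes in Col-0, 125 were unmethylated, 20 CpmCpG, 71 mCpmCpG and 1 mCpCpG. RPP4 had 16 mCpmCpG and 2 CpmCpG sites of 26, and AT4G16900 41 and 9 of 67. AT4G16920 had 8 and 4 of 23, SNC1 4 and 3 of 43, and RPP5 2 and 2 of 22. All 28 sites of AT4G16940 and all 8 of AT4G16960 were unmethylated. The outer cytosines of CpCpG sites in RPP4 had 42.4% methylation (37.5–47.5%), under the 63.5% of CpApG and 69.1% of CpTpG, whereas in AT4G16900 CpCpG had 51.0% against 47.4% and 47.6%.

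For the comparison with Ler-0, the Ler-0 sequence was rebuilt from its cytosine report, in which 27.3% of bases stay unresolved, and 500-bp tiles of Col-0 were aligned to it. A tile counted as placed once when no other place came near its alignment score. Of 127 tiles over the span of the cluster, 71 (55.9%) were placed once, against 212151 of 238291 tiles (89%) of the nuclear chromosomes. Members ranged from 21.4% of tiles in AT4G16940 and 31.2% in RPP4 to 81.8% in AT4G16900.

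Placed once did not mean paired. Of the 71 tiles, 68 fell in the Ler-0 stretch between the same flanking sequences, and 40 of these shared their Ler-0 place with another Col-0 tile. Unshared tiles are the others of these 68, so that tiles placed outside the stretch are not among them. Tiles of RPP4, AT4G16920 and RPP5 converged on the same Ler-0 places from 19.6 kb to 20.3 kb, and tiles of SNC1 and RPP5 on places from 79.3 kb to 81.3 kb. Tiles of AT4G16900 and AT4G16920 ran in the same order in both genomes, from 12.3 kb to 22.6 kb in Ler-0, although AT4G16920 also had tiles elsewhere. SNC1 was split, with unshared tiles of its 5′ part placed from 23.3 kb to 24.3 kb, tiles of its 3′ part from 78.7 kb to 81.1 kb, and 1 tile between them at a shared place at 14.3 kb. Tiles of RPP5 were spread over places at 2.32 kb, 19.6 kb, 35.2 kb, 78.1 kb and 81.3 kb. A Ler-0 level is therefore that of the nearest copy, and which gene of Ler-0 corresponds to a member is not known. Calls at a shared place were counted for each tile placed there. The Ler-0 levels of RPP4, AT4G16920, RPP5 and SNC1 thus rest partly on the same calls, which their intervals do not allow for.

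**Figure D2:**
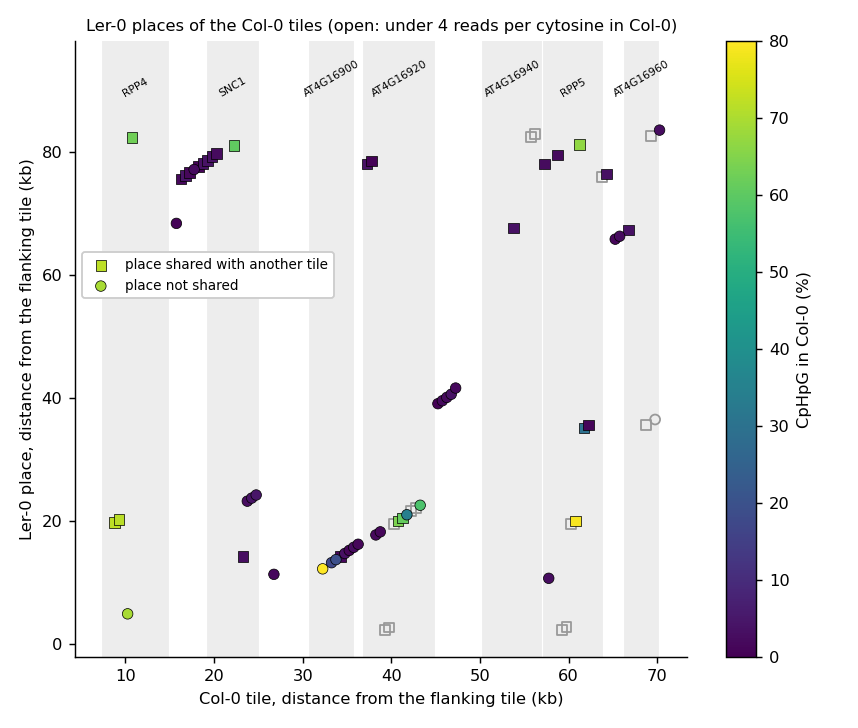
Position of the tiles placed once in the Col-0 stretch (x axis, kb from the flanking tile) against their place in the rebuilt Ler-0 stretch (y axis, kb). Colour gives the CpHpG level in Col-0, squares share their Ler-0 place with another tile, circles do not, and open symbols have under 4 reads per cytosine in Col-0. Tiles of AT4G16900 and AT4G16920 form a diagonal from 12.3 kb to 22.6 kb in Ler-0, while squares from RPP4 and RPP5 lie at the same heights as others.

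Over the tiles placed once, RPP4 had 69.3% CpHpG methylation in Col-0 (66.7–71.8%) and 5.20% at the Ler-0 places (3.54–7.56%), from 26.6% of its length. Of its 5 tiles placed once, 4 lay inside the Ler-0 stretch, and 3 of these 4 shared their place. AT4G16920 had 25.03% (23.1–27.0%) and 3.89% (3.11–4.85%), RPP5 22.2% (20.3–24.1%) and 3.77% (3.02–4.70%), and SNC1 9.59% (8.37–10.97%) and 4.26% (3.35–5.39%). AT4G16900 had 48.8% (47.2–50.4%) and 26.3% (24.8–27.8%). In these 5 genes the Col-0 level was the higher one, with intervals that do not overlap. AT4G16940 had 3.23% and 3.89%, and AT4G16960 2.84% and 3.75%, with under 3 reads per cytosine in Col-0.

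A gene was called when its levels differed by at least 20 percentage points in CpHpG (40 in CpG, 10 in CpHpH) with enough reads in both libraries. Of 5 members with enough reads, 3 were called higher in Col-0 for CpHpG, where the background over all genes was 0.834% of 25182. They were RPP4 (by 64.1 points), AT4G16900 (22.6) and AT4G16920 (21.1). The calls of RPP4 and AT4G16920 are not separate results, since their Ler-0 levels rest partly on the same reads at shared places. RPP5 lay just outside the limit with 18.4 points, and SNC1 had 5.33. The count fell to 1 with a limit of 40 points (RPP4), to 1 of 3 tested over tiles whose Ler-0 place is not shared (AT4G16900, while AT4G16920 had 17.96 points), and to the single member that could be tested with at least 8 reads per cytosine (AT4G16900). None of the 5 was higher in Ler-0, with a background of 2.89%. Since the cluster was selected on this difference, its count is not evidence that the cluster stands apart.

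The Ler-0 level of AT4G16900 came mostly from places outside the cluster. Its 2 tiles at the 3′ end, in the high block, were placed outside the Ler-0 stretch, with 11.6% and 19.5% differences, and had 37.5% and 35.4% CpHpG methylation there. At the 7 tiles placed inside the stretch, all but 1 not shared, the gene was low in Ler-0. Over the 6 unshared tiles inside the stretch its Col-0 level was 39.6% (37.3–41.9%) and its Ler-0 level 2.06% (1.31–3.23%). Its CpG levels moved in the same way, with 75.9% and 72.0% over all tiles placed once but 41.7% and 1.42% over these unshared tiles.

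In CpG, 2 of 5 members were called higher in Col-0 (background 0.787%), RPP4 with 93.9% against 2.75% and AT4G16920 with 57.4% against 10.97%. No member was called higher in Ler-0 (background 0.578%), but SNC1 went the other way from its CpHpG level, with 11.7% CpG methylation in Col-0 (10.3–13.2%), against 30.6% for Ler-0 (28.3–32.9%). This came from tiles in its exons 5 and 6, at 0.769% and 9.48% in Col-0, whose Ler-0 places, shared with a tile of RPP5, had 66.2% and 53.0%, with only 5.41% and 7.22% CpHpG. In CpHpH, 0 of 4 members were called higher in Col-0 (background 0.322%) and 0 of 4 in Ler-0 (background 0.147%). The levels of RPP4 were 13.5% and 0.820%, but its Ler-0 places had under 4 reads per cytosine in this context.

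**Figure D3:**
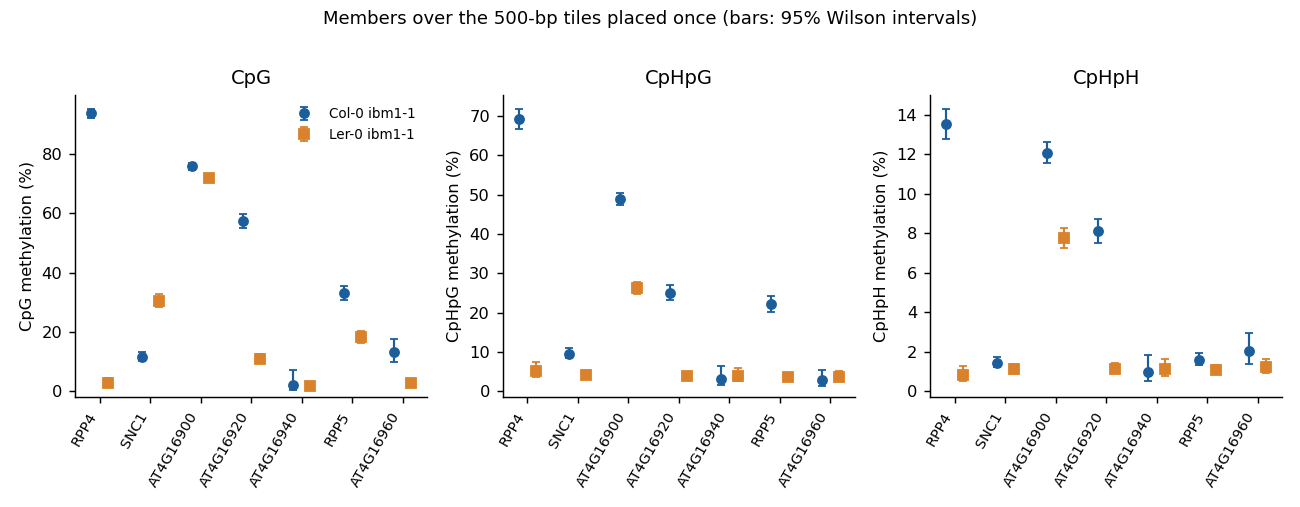
CpG, CpHpG and CpHpH methylation (y axes, percent, each panel on its own scale) of the 7 members over the same tiles in Col-0 (circles) and at their Ler-0 places (squares), with 95% Wilson intervals for counting error. RPP4 and AT4G16920 are higher in Col-0 in all 3 contexts, AT4G16900 has 75.9% and 72.0% CpG, the latter mostly from places outside the Ler-0 cluster, and SNC1 has more CpG methylation in Ler-0.

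At single tiles, 5 of 42 tested over the span of the cluster had a CpHpG level of 50% or more in Col-0 but less than 5% at the Ler-0 place (background 0.119% of 143234 tiles), and 0 had the reverse (background 0.226%). The 5 became 1 with tiles shifted by 250 bp and 0 with at least 8 reads per cytosine. In RPP5, the tile at chr4:9541501-9542000 had 79.3% and 0.901%, and its neighbour at chr4:9542001-9542500 had 66.7% and 2.44%. The RPP4 tile at chr4:9489501-9490000 had 71.9% and 0 of 145 calls, which allows up to 2.07%. All 3 share their Ler-0 place with tiles of other members. The other 2 do not share it. They were chr4:9513001-9513500 in AT4G16900, with 79.9% and 1.41%, and chr4:9524001-9524500 in AT4G16920, with 57.3% (50.8–63.6%) and 3.16% (1.08–8.88%).

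The AT4G16920 tile differs from its Ler-0 place in 0.2% of its aligned letters. Bases left unresolved between A and T were counted as equal, so changes between A and T there are not seen. Over all unshared tiles, AT4G16920 had 21.8% CpHpG in Col-0, against 3.87% for Ler-0, SNC1 3.68% and 2.69%, and RPP5 2.64% and 2.03%. RPP4 had 69.7% and 4.26%, from 1 unshared tile with 47 Ler-0 calls. RPP5 has only 1 unshared tile and SNC1 3, and these were low in Col-0 too. The differences of RPP5 and SNC1 thus lay in tiles whose Ler-0 place is shared. Over the unshared tiles of the 7 genes Col-0 had 28.0% (26.5–29.4%) and Ler-0 2.53% (1.97–3.25%), and between the genes, over tiles placed once, it was 2.37% and 2.18%.

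Because genes could not be paired, copies of the 8 exons of RPP5 were looked up in both stretches by sequence (blastn over at least 75% of the exon), whichever gene they belong to. Exon 4 had 3 copies in Col-0, at 62.8%, 72.3% and 80.2% CpHpG, and 2 in Ler-0, at 1.14% of 88 calls and, with too few reads to be counted (3.61 per cytosine), at 1.205% of 83 calls. Exon 3 had 10 copies in each, 3 and 2 of which are matches within exon 4. In Col-0 all 10 had enough reads and 8 were at 20% or more, up to 80.2%, and the 5 such copies in Ler-0 were at 6.90% or less. Exon 5 had 7 copies in each. Of the 5 Col-0 copies with enough reads, 3 were at 20% or more, up to 70.3%, and the 4 such copies in Ler-0 were between 1.53% and 3.06%. Exon 2 had 8 and 7 copies, with up to 66.1% in Col-0 and up to 15.4% in Ler-0.

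Copies of exon 1 were low in both, between 0.725% and 5.73% in the 6 copies of Col-0 with enough reads and between 0.369% and 2.30% in the 6 of Ler-0. Exon 6 was low too, with 2.80% in the single copy with enough reads in Col-0 and between 1.09% and 6.73% in 5 copies of Ler-0. Copies of exons 7 and 8 with enough reads were at 4.35% or less in Col-0 and 5.74% or less in Ler-0. Among copies with enough reads, those at 20% or more were thus found in Col-0 for exons 2, 3, 4 and 5 and in Ler-0 for none. Shorter matches are left out, such as exon 6 of RPP4 (72.6%), 91.9% identical to exon 6 of RPP5 over 529 bp, and exon 6 of AT4G16900 (73.9%). A pair of near-identical Ler-0 copies, with exon 1 at 6.17 kb and 62.6 kb, had too few reads to be counted. At the copy of exon 2 at 61.6 kb, 10 of 23 CpHpG calls were methylated (43.5%, 25.6–63.2%) and 90.9% of 22 CpG calls, so that a methylated copy in Ler-0 may be missing from these counts.

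**Figure D4:**
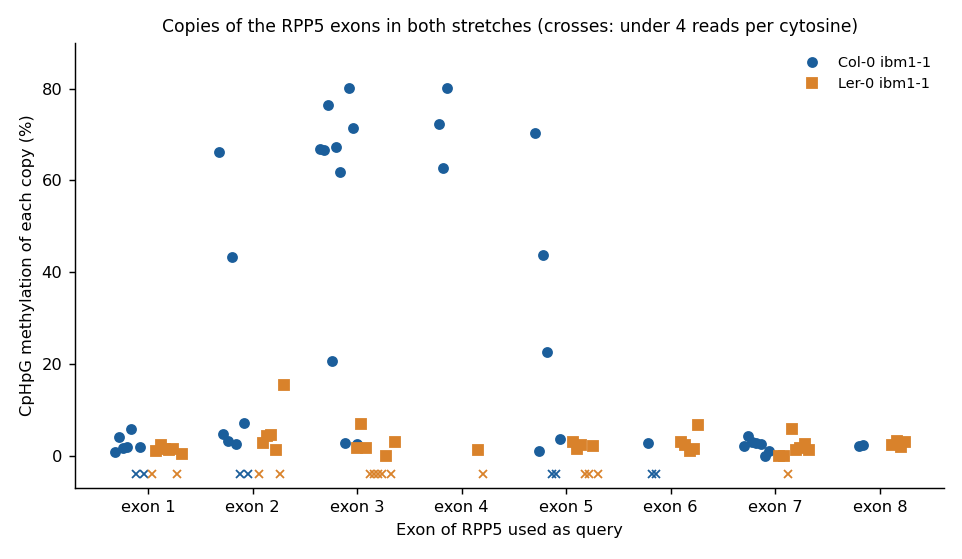
CpHpG methylation (y axis, percent) of the copies of the 8 exons of RPP5 (x axis) in the Col-0 stretch (circles) and the rebuilt Ler-0 stretch (squares). Crosses under 0 are copies with under 4 reads per cytosine, whose level is not drawn. The 3 Col-0 copies of exon 4 lie between 62.8% and 80.2%, and no Ler-0 copy of any of these exons with enough reads lies above 15.4%.

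The whole stretch between the flanking tiles was 73500 bp in Col-0 and 87084 bp in Ler-0, with 62.3% and 33.0% CpG, 31.2% and 14.6% CpHpG, and 8.86% and 5.99% CpHpH methylation. In 500-bp windows with enough reads, 30 of 124 were at 50% CpHpG or more in Col-0, against 7 of 91 for Ler-0. The 30 Col-0 windows lie in RPP4, SNC1, AT4G16900, AT4G16920, RPP5 and the pseudogenes AT4G16870 and AT4G16910. Of the Ler-0 windows, 5, centred from 69.25 kb to 71.25 kb, match the pseudogene AT4G16870 best within the Col-0 stretch, where alone they were searched. Identity was between 71.9% and 77.7%, with unresolved bases read as A. The match of the window at 70.75 kb covers only 121 bp. The other 2, centred at 63.75 kb and 64.25 kb, have 44.7% and 41.1% CpHpH methylation. High CpHpG methylation was thus measured in the Ler-0 stretch too, but no high window with enough reads had its best match in a high exon of Col-0.

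**Figure D5:**
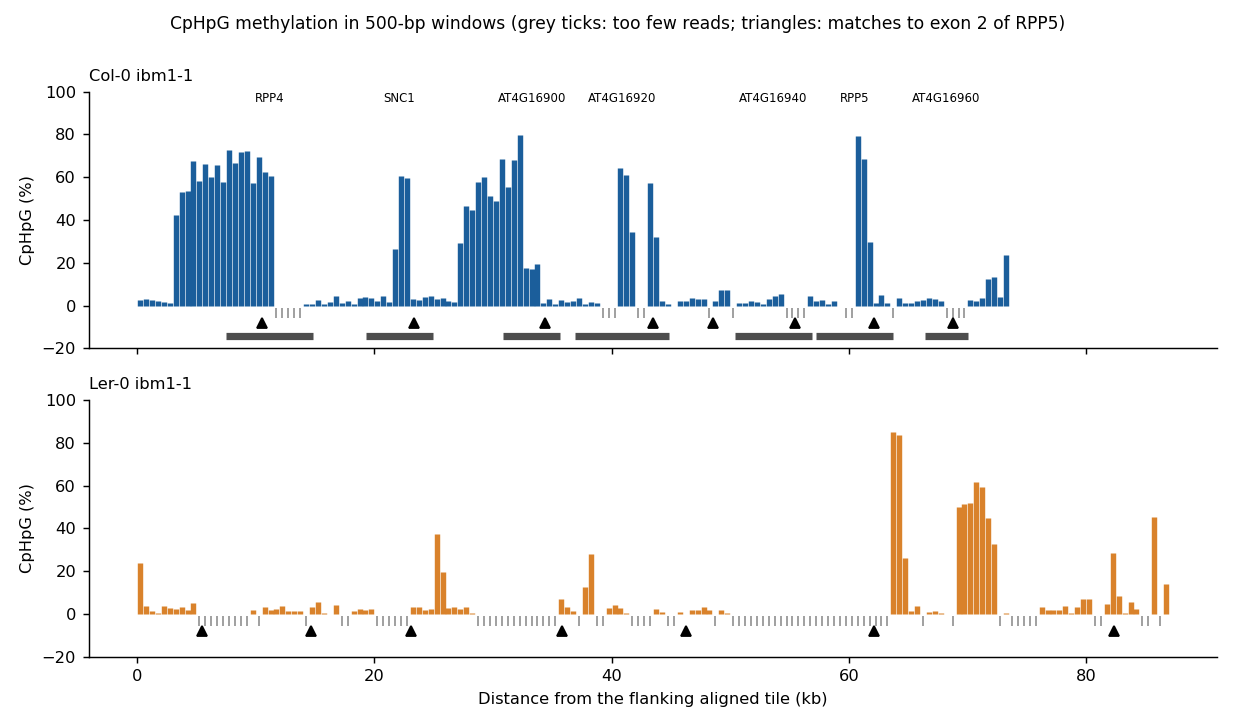
CpHpG methylation (y axis, percent) in 500-bp windows along the stretch of the cluster in Col-0 (upper panel) and in the rebuilt Ler-0 sequence (lower panel), by distance from the flanking aligned tile (x axis, kb). Bars are windows with at least 4 reads per cytosine, grey ticks windows with fewer, triangles matches to exon 2 of RPP5, and dark lines in the upper panel the 7 members. In Col-0, 30 windows reach 50%, and in Ler-0 7 windows do, while runs of grey ticks show where Ler-0 has too few reads.

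The Ler-0 stretch was read less completely. In Ler-0, 61.6% of its 75-bp windows were unique, against 82.0% in Col-0. Of 15697 Ler-0 cytosines in unique windows, 84.7% had reads, with a mean of 5.64, whereas of the other 17584, 44.0% had reads, with a mean of 3.00. Levels of Ler-0 copies that are repeated within its own genome therefore rest on few reads or none.

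The genes whose levels were most like the median of the 7 members over both libraries and the 3 contexts were AT1G03540, a pentatricopeptide repeat protein, La1 (AT4G32720) and GAMMA CA1 (AT1G19580), at distances of 3.59, 5.05 and 5.54 percentage points among 21322 genes. Their CpHpG levels were 19.3%, 21.6% and 21.7% in Col-0 and 5.26%, 7.67% and 3.41% in Ler-0, against medians of 22.2% and 3.89% for the members. These medians include all 7 members, without the minimums of reads and aligned length set for the compared genes. AT4G16940 and AT4G16960 had too few reads in Col-0, and the median of 3.89% is the value of AT4G16940. RPP4 and AT4G16940 had only 26.6% and 22.0% of their length in tiles placed once.

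In a list of 15 genes that act with TIR-NBS-LRR receptors or regulate SNC1, 0 were called in any context, 14 of them with enough reads for CpHpG. Since the backgrounds are 0.834% and 2.89%, a count of 0 is nothing particular to a list of this length. NPR1, a regulator of salicylic acid responses, had 36.8% CpG methylation in Col-0, against 1.29% for Ler-0, under the limit of 40 points. EDS1, to which signalling from these receptors converges, had 2.61% CpHpG methylation in Col-0, against 1.49% for Ler-0. The highest levels were in MOS1, a regulator of SNC1 expression, with 42.9% and 45.5%, in TPR1, a co-repressor that associates with SNC1, with 27.9% and 30.9%, and in ADR1-L1, a helper receptor, with 22.2% and 25.8%. These 3 genes had similar levels in both libraries, unlike RPP4 and AT4G16920.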

How the data were processed

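Bisulfite libraries were made by the authors from 150 ng of DNA of rosette leaves, 1 per ecotype, and per the labels reads were processed with Trimmomatic and Bismark (versions not given in the sources used here), against TAIR10 and a Ler-0 assembly. The deposited files list every cytosine with raw counts of its methylated and of its unmethylated calls, not normalized. The members, limits and lists were chosen with earlier results of these data known.

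Levels were pooled calls with Wilson intervals (95%). The reference genome matched the Col-0 report at every cytosine of its nuclear chromosomes. The Ler-0 sequence was rebuilt from contexts in the report, with unresolved bases read as A in both genomes. Tiles of 500 bp were placed with bwa 0.7.19 (mapping quality of at least 20, score at least 20 above the next place, at least 400 bp aligned over at most 600 bp). Copies were found with blastn 2.17.0. Genes or tiles needed 4 covered cytosines and 4 reads per cytosine. All members were named, with genes lying between or beside them, a list of 15 signalling genes and the 3 genes nearest to the members' median levels. The steps were tested on simulated data. Alternatives were minimap2 2.31, shifted tiles, other read minimums and limits, unique or shared cytosines, chloroplast correction and, chosen after seeing the data, unshared tiles. Python 3.11.15 and scipy 1.17.1 were used.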

Additional observations from a re-analysis of the deposited data

How the results depend on the processing

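No paired analysis was possible because each ecotype had 1 library, and no replicate could be left out for the same reason. The CpHpG level of the 7 genes in Col-0 (30.6%) was 32.2% at cytosines with at least 5 reads, 20.1% as the mean of single cytosines, 29.7% after correction for chloroplast non-conversion and 25.3% at cytosines in unique windows. The Ler-0 level (11.1%) was 11.9%, 6.05% and 9.85% under the first 3 of these settings, 3.80% over tiles with at most 5% differences, 6.596% with tiles shifted by 250 bp, 7.81% with minimap2 and 9.69% at shared cytosines. It was 2.53% over tiles inside the Ler-0 stretch whose Ler-0 place is not shared, a setting chosen after seeing the data. In the other Ler-0 values, calls at a shared place were counted for each tile placed there. Of the 1197 methylated Ler-0 calls behind the 11.1%, 903 were in AT4G16900, mostly at its tiles placed outside the Ler-0 stretch. Those tiles have more than 5% differences and are left out at that limit and over unshared tiles. The Col-0 values are over whole genes and the Ler-0 values over tiles placed once, where Col-0 had 33.9%. Tiles placed once (71) fell to 39 with at most 5% differences, and were 77 with minimap2, 76 with looser limits and 62 when shifted.

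Of the 3 members called for CpHpG, 1 was called with a mean of at least 8 reads per cytosine (AT4G16900, the only member tested), 1 with a limit of 40 points (RPP4) and 1 over unshared tiles (AT4G16900, of 3 tested). With at most 5% differences RPP5 was called as well, giving 4. The 5 tiles high in Col-0 alone became 0 with at least 8 reads, 1 when shifted and 2 over unshared tiles, 6 with minimap2 and 5 with either other limit. The cause of these changes was not tested, apart from the smaller number of genes or tiles with enough reads. Depth limits the precision of single Ler-0 tiles, such as the 145 calls at the RPP4 tile high in Col-0 alone, and leaves repeated Ler-0 copies without a level.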
